A study of Homo sapiens with 36 samples.

Results

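The Normal-to-Vehicle shift of gene expression was compared between LNCaP/HIF1a cells of the clone HIF12 and LNCaP cells with the vector alone (LNCaP/Empty). LNCaP is an androgen-sensitive human prostate cancer cell line. The measure was a difference of differences: the mean of HIF12 Vehicle minus that of HIF12 Normal, less the mean of LNCaP/Empty Vehicle minus that of LNCaP/Empty Normal. It drew on 21 of the 36 Illumina BeadArrays of the series, with n = 5 in LNCaP/Empty Vehicle, HIF12 Normal and HIF12 Vehicle and n = 6 in LNCaP/Empty Normal. The remaining arrays held both lines with the synthetic androgen R1881 and a further HIF1a clone, HIF49, as Normal.

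HIF12 carried a virally introduced HIF1a with amino acid substitutions that keep the protein from being degraded in oxygen, and LNCaP/Empty carried the same kind of vector without it. Vehicle was 0.01% ethanol after 96 h of growth in charcoal stripped serum, which removes steroid hormones. The labels do not define Normal, and they state the growth in stripped serum for every array, so that the removal of serum steroids as the difference between Normal and Vehicle is not established by the labels. KLK3, which encodes the prostate-specific antigen and is driven by the androgen receptor, fell from Normal to Vehicle in both lines, by 1.97 in LNCaP/Empty and by 2.14 in HIF12 on the log2 scale. HIF12 was 1 clone, and LNCaP/Empty 1 line, so that the transgene and differences between clones cannot be told apart. The labels do not say if replicate arrays stem from independent cultures, and the p-values measure only the spread between arrays.

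The androgen receptor is a steroid-activated transcription factor that keeps luminal prostate cells secreting and growing, and serum without steroids silences many of its targets while releasing others from repression. HIF1a is the subunit of the hypoxia-inducible factor that is normally destroyed when oxygen is present, and its stable form switches on genes for glycolysis, angiogenesis and adaptation to stress. The comparison asked which genes differed between Normal and Vehicle by a different amount in HIF12 than in LNCaP/Empty.

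Between 15747 and 17262 probes were detected per array at a detection p under 0.01, and pairs of the 21 arrays had correlations of 0.9813 to 0.9926. The luminal markers measured were detected throughout, except KLK2 on 18 of the 21 arrays. Of 15 markers of basal, neuroendocrine, stromal, blood and endothelial cells, 11 were detected on no array, among them KRT5, CHGA, COL3A1 and PTPRC, and ENO2, CD68 and VWF on all 21. The summed linear signal of these 15 markers ranged from 970 to 1330 in LNCaP/Empty Normal, 1070 to 1210 in LNCaP/Empty Vehicle, 1400 to 1610 in HIF12 Normal and 1230 to 1440 in HIF12 Vehicle, and its part in the results was not tested. One array, HIF12 Vehicle replicate 4, lay closer to the R1881 arrays at several androgen targets. TMPRSS2 stood at 12.55 on it and between 11.04 and 11.26 on the other 4 arrays of its group, and SGK1 at 7.36 against 5.96 to 6.42, while KLK3 at 6.73 lay within their 6.27 to 7.00. Without that array 24 genes were called higher and 19 lower, of which 23 and 17 were among those called with it, and MLKL, ANKRD29, CAPN5, LDHD, NQO1 and TFAP2A were no longer called.

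HIF1A itself was not called on any of its 3 probes. The probe with the largest gap between the lines had a log2 signal of 8.56 to 8.94 with a median of 8.71 in LNCaP/Empty Normal, and its values in LNCaP/Empty Vehicle were 8.30, 8.07, 8.66, 8.84 and 7.94. In HIF12 they were 10.17, 10.16, 10.31, 10.29 and 10.31 in Normal and 9.46, 9.96, 10.03, 10.11 and 10.02 in Vehicle. Every HIF12 array was above every LNCaP/Empty array, by 1.52 on average in Normal and 1.56 in Vehicle, and the difference of shifts was 0.03 (95% confidence interval -0.81 to 0.87, adjusted p = 1). Another HIF1A probe was likewise higher in HIF12, by 1.48 and 1.17, and the remaining one differed by -0.12 in Normal and 0.15 in Vehicle.

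A gene was called when at least 1 probe had a Benjamini-Hochberg adjusted p under 0.05 in limma and a difference of at least 1.5-fold. Of 20045 genes, 46 were called (0.229%), 28 with a higher shift in HIF12 (0.14%) and 18 with a lower one (0.0898%). By comparison, 660 genes were called higher and 588 lower in Vehicle than in Normal in LNCaP/Empty (3.29% and 2.93%), and 766 and 544 in HIF12 (3.82% and 2.71%). Of the 1098 genes called in LNCaP/Empty by their brightest probe, 1081 had a shift of the same sign in HIF12, and 27 were among the 46. Another 15 called probes had no gene name, 7 higher and 8 lower. In these bulk samples fewer cells of a kind and less RNA per cell cannot be told apart. The plot of the shifts of both lines sets the called genes beside all others.

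**Figure D1:**
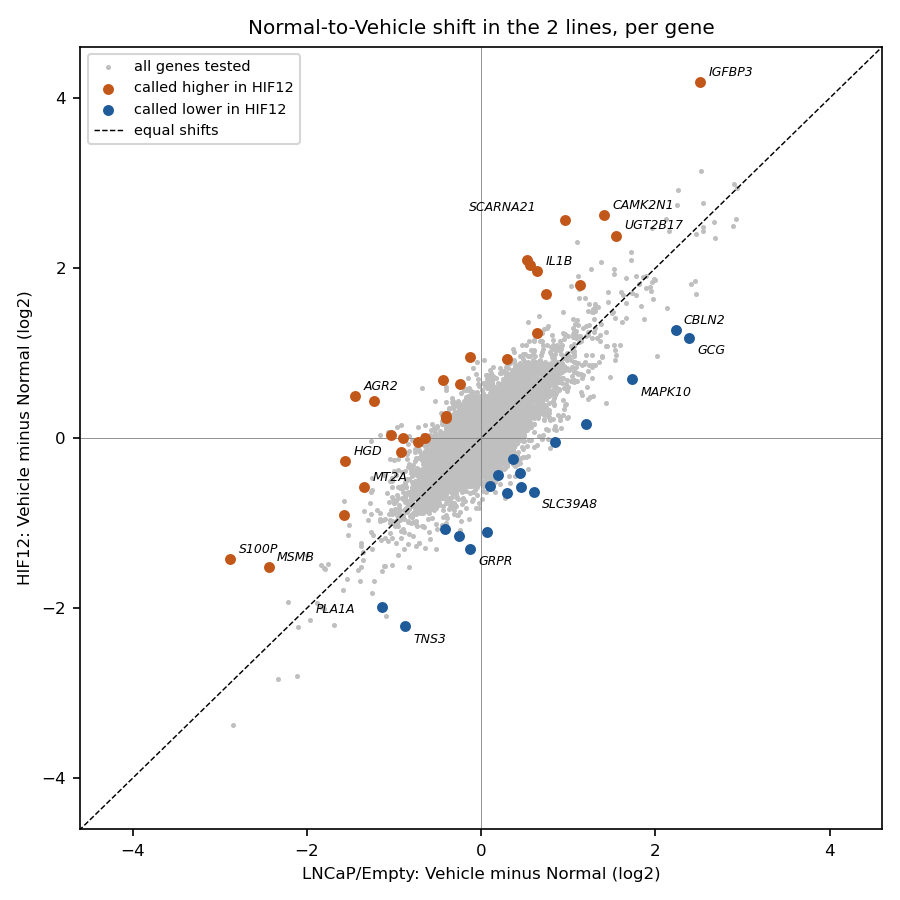
Normal-to-Vehicle shift of each gene in LNCaP/Empty (horizontal axis, log2) and in HIF12 (vertical axis, log2), each point 1 of 20045 genes at its brightest probe and the called genes at their called probe of smallest p. The 28 genes called higher in HIF12 lie above the line of equal shifts and the 18 called lower lie below it, with IGFBP3 at 2.51 and 4.19 and S100P at -2.88 and -1.42.

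The 28 genes higher in HIF12 reached that place by several routes. In 9 of them the shift was called in LNCaP/Empty only, in 6 in HIF12 only, in 11 in both lines in the same direction, and in 2 in neither. Of the 18 lower genes these numbers were 2, 5, 5 and 5, and SLC39A8 was called in opposite directions by its probe of smallest p. Detection limited some of the sizes: 24 of the 46 genes were detected on all 21 arrays, and 20 had a group in which no array detected the gene, where a fitted difference is no measured size. The clones lay closer together in Vehicle than in Normal for 25 of the 46 genes and farther apart for 21.

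AGR2 fell in LNCaP/Empty and not in HIF12. It encodes a protein disulfide isomerase of the endoplasmic reticulum that is made by mucus-secreting and luminal cells. Its log2 signal in LNCaP/Empty was 9.00 to 10.02 with a median of 9.60 in Normal, and 7.95, 8.21, 8.30, 8.01 and 8.19 in Vehicle. In HIF12 it was 8.33, 8.12, 7.38, 8.09 and 7.94 in Normal and 8.34, 8.21, 8.67, 8.54 and 8.57 in Vehicle. The LNCaP/Empty groups did not overlap and Vehicle was the lower, whereas in HIF12 the ranges overlapped and Vehicle had the higher mean. The shift was -1.45 in LNCaP/Empty (adjusted p = 1.2e-07) and 0.49 in HIF12 (adjusted p = 0.09), a difference of 1.94 (95% confidence interval 1.43 to 2.45, adjusted p = 4.9e-05) or 3.84-fold. A dimmer AGR2 probe, detected on some arrays of 3 of the 4 groups, differed by 0.79 without passing (adjusted p = 0.54).

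S100P, a calcium-binding protein, fell in both lines. It stood at 8.93 to 9.35 with a median of 9.22 in LNCaP/Empty Normal, and at 5.89, 6.18, 6.41, 6.74 and 6.30 in LNCaP/Empty Vehicle. In HIF12 it stood at 8.90, 8.89, 8.63, 8.60 and 8.75 in Normal and at 7.79, 7.36, 7.32, 6.96 and 7.24 in Vehicle. The 2 Vehicle groups did not overlap, and the lowest HIF12 array was above the highest LNCaP/Empty array. The shift was -2.88 in LNCaP/Empty and -1.42 in HIF12, a difference of 1.46 (95% confidence interval 1.03 to 1.90, adjusted p = 0.00033).

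MSMB, which encodes the secreted prostate protein beta-microseminoprotein, fell to where no Vehicle array of either line detected it. Its signal in LNCaP/Empty Normal was 7.32 to 7.64 with a median of 7.50, and in HIF12 Normal it was 5.96, 6.13, 6.27, 6.16 and 6.35. The Normal groups did not overlap. Normal was at least 3.04-fold above Vehicle in LNCaP/Empty and at least 1.24-fold in HIF12, each against the detection limit of the arrays, and the fitted difference of 0.92 (adjusted p = 0.001) is no measured size. Its other probes gave 0.74 and 0.57 and did not pass (adjusted p = 0.47 and 0.6).

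HGD, a dioxygenase of tyrosine breakdown, and NIBAN1, a stress-responsive protein, had low Normal levels in HIF12. HGD fell from 8.03 to 8.43 with a median of 8.15 in LNCaP/Empty Normal to 6.34, 6.68, 6.67, 6.52 and 6.80 in Vehicle. In HIF12 it stood at 6.93, 6.50, 6.31, 5.89 and 6.32 in Normal and at 6.52, 6.15, 5.58, 6.26 and 6.11 in Vehicle. The LNCaP/Empty groups were apart and the HIF12 groups overlapped near the detection limit, which lay at 5.78 to 6.05 on the 21 arrays. The difference was 1.29 (95% confidence interval 0.82 to 1.76, adjusted p = 0.0041), while a dimmer HGD probe gave -0.01 (adjusted p = 1). For NIBAN1, both called probes fell in LNCaP/Empty, by 1.23 and 1.27. Its signal by the probe of smallest p was 7.49 to 8.00 with a median of 7.71 in LNCaP/Empty Normal, and 6.47, 6.39, 6.47, 6.27 and 6.97 in Vehicle. HIF12 had 5.35, 4.88, 4.99, 5.01 and 5.34 in Normal, on no array detected, and 5.65, 5.09, 5.63, 5.95 and 5.37 in Vehicle, detected on 1. The fitted difference of 1.65 (adjusted p = 0.00018) is no measured size, since HIF12 was near or below the detection limit in both states. HIF49 Normal, the other HIF1a clone, had a mean NIBAN1 signal of 8.03 ± 0.22 (SD, n = 5) and an HGD signal of 7.41 ± 0.40 (SD, n = 5). Both means were above the highest HIF12 Normal array. At some other called genes HIF49 Normal lay nearer to HIF12 Normal than to LNCaP/Empty Normal. Means in HIF49, HIF12 and LNCaP/Empty Normal were 11.15, 10.97 and 12.75 for UGT2B17, and 6.06, 6.50 and 5.26 for GRPR.

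A second set rose in both lines, and rose further in HIF12. IGFBP3, which binds insulin-like growth factors and is a known hypoxia-responsive gene, stood at 7.00 to 7.86 with a median of 7.29 in LNCaP/Empty Normal and at 9.50, 9.22, 9.94, 9.47 and 11.12 in Vehicle. In HIF12 it stood at 6.78, 6.61, 6.43, 6.56 and 6.71 in Normal and at 10.69, 10.41, 11.05, 10.92 and 10.96 in Vehicle. All HIF12 Normal arrays were below all LNCaP/Empty Normal arrays, and in Vehicle 4 of the 5 LNCaP/Empty arrays were below the HIF12 arrays, with replicate 5 above them. The rise was 2.51 in LNCaP/Empty and 4.19 in HIF12, a difference of 1.68 (95% confidence interval 0.98 to 2.37, adjusted p = 0.02) or 3.20-fold. The other IGFBP3 probe gave 1.31 and did not pass (adjusted p = 0.27), and the call was lost when LNCaP/Empty Vehicle replicate 1, 2 or 4 or HIF12 Vehicle replicate 3 was left out.

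CAMK2N1, an inhibitor of the calmodulin-dependent kinase CaMKII, and UGT2B17, the enzyme that joins androgens to glucuronic acid, are genes that androgen represses in LNCaP cells. CAMK2N1 had a signal of 11.82 to 12.75 with a median of 12.33 in LNCaP/Empty Normal and of 13.75, 13.61, 13.66, 13.66 and 13.96 in Vehicle. In HIF12 the signal was 10.44, 10.40, 10.32, 10.40 and 10.37 in Normal and 13.05, 12.92, 13.06, 12.97 and 13.06 in Vehicle. No groups overlapped, HIF12 was the lower line in both states, and the gap between the lines narrowed from 1.93 to 0.72. The difference of shifts was 1.21 (95% confidence interval 0.92 to 1.51, adjusted p = 1.4e-05). UGT2B17 had a signal of 12.50 to 13.01 with a median of 12.73 in LNCaP/Empty Normal and of 14.13, 14.12, 14.54, 14.28 and 14.42 in Vehicle. In HIF12 the values were 11.18, 10.97, 11.04, 10.75 and 10.92 in Normal and 13.38, 13.18, 13.25, 13.38 and 13.59 in Vehicle. Its groups lay in the same order as those of CAMK2N1, and the difference was 0.84 (95% confidence interval 0.52 to 1.15, adjusted p = 0.0071). Its other probes that were detected gave 0.97 and 0.78 and did not pass (adjusted p = 0.13 and 0.45). UGT2B17 has close relatives in the genome, and the probes may read more than 1 of them. CAMK2N1 and UGT2B17 were the 2 called members of 25 measured androgen-repressed genes (8% against 0.229% of all genes). The median difference of that list was 0.017 against 0.011 over all genes.

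ADRA2A, an adrenergic receptor, crossed over between the lines. It was at 7.18 to 7.72 with a median of 7.35 in LNCaP/Empty Normal and at 6.94, 6.30, 6.83, 6.52 and 6.79 in HIF12 Normal. In Vehicle it was at 8.13, 8.25, 8.12, 8.01 and 8.10 in LNCaP/Empty and at 8.38, 8.29, 8.43, 8.45 and 8.37 in HIF12. HIF12 was below LNCaP/Empty on every Normal array and above it on every Vehicle array, and the difference was 0.97 (95% confidence interval 0.63 to 1.31, adjusted p = 0.0028).

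Dim genes contributed as well. IL1B, the inflammatory cytokine, was detected in HIF12 Vehicle alone, at 6.49, 6.98, 6.80, 6.12 and 6.72. In HIF12 Vehicle it was at least 1.67-fold above HIF12 Normal, beside a fitted difference of shifts of 1.32 (adjusted p = 0.00049). HES1, a Notch target, was detected on 4 of 5 HIF12 Vehicle arrays, on 3 of 6 LNCaP/Empty Normal arrays and on none of the other groups, with a fitted difference of 1.12 (adjusted p = 0.021) that was called in 13 of the 21 fits that left out 1 array. With the undetected levels replaced by the detection limit, its difference was at least 0.08, so that 1.12 is no measured size. HES1 was the single member called of 24 Notch genes (4.17% against 0.229% of all genes). CT45A3, of a family of near-identical cancer-testis genes on the X chromosome, was detected on all 5 HIF12 Vehicle arrays and on 1 HIF12 Normal array, with a fitted difference of 1.08 (adjusted p = 0.01) that its other probes, at 0.27 and -0.22, did not share. NQO1, an NRF2-driven reductase, was bright in every group and differed by 0.59 (adjusted p = 0.047), at the edge of both thresholds, and its call held in 5 of those 21 fits.

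**Figure D2:**
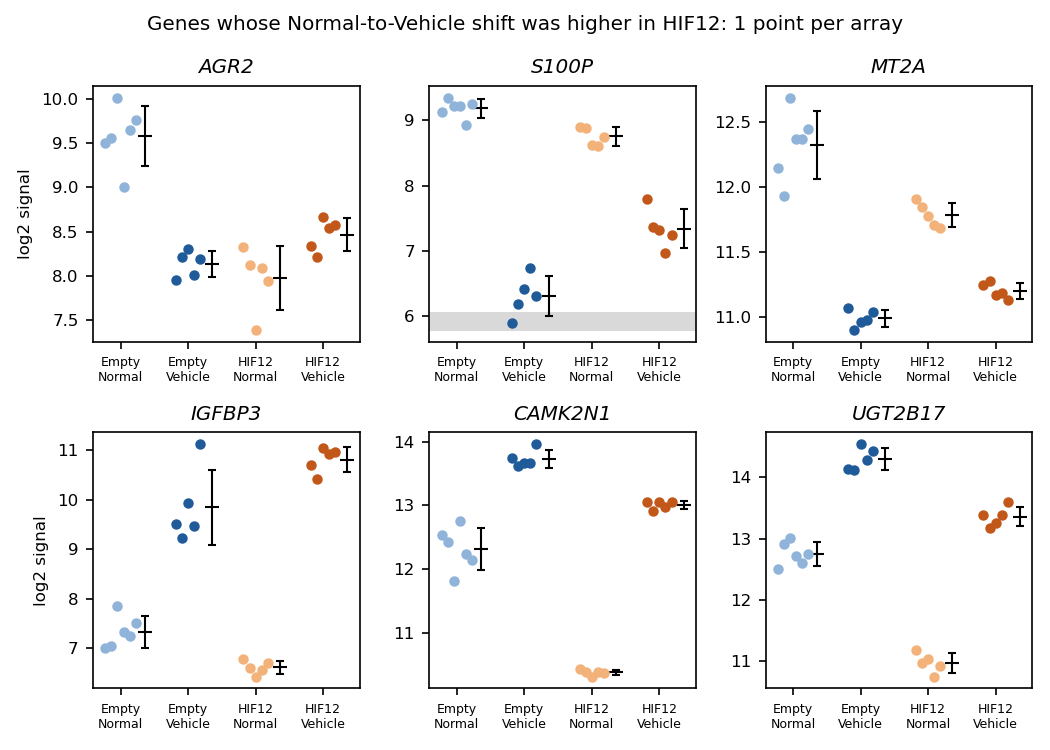
Log2 signal of 6 genes called higher in HIF12, 1 point per array, by line and treatment, with the mean and SD of each group beside its points and the range of detection limits as a gray band where it falls in the panel. AGR2, S100P and MT2A fell from Normal to Vehicle in LNCaP/Empty and fell less or did not fall in HIF12, and IGFBP3, CAMK2N1 and UGT2B17 rose in both lines and more in HIF12.

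Small Cajal body RNAs (scaRNAs), which guide the modification of spliceosomal RNAs and are cut from the introns of host genes, held 3 of the called genes, a group picked out after its values were seen. Whether their probes read the cut RNAs or the host transcripts that hold them was not tested. SCARNA21 was detected on no Normal array. It stood at 6.24, 5.46, 5.79, 5.90 and 6.25 in LNCaP/Empty Vehicle and at 7.76, 7.41, 7.63, 7.46 and 7.52 in HIF12 Vehicle. All HIF12 Vehicle arrays were above all LNCaP/Empty Vehicle arrays, with a fitted difference of 1.61 (95% confidence interval 1.27 to 1.95, adjusted p = 1.8e-06). Vehicle was at least 3.18-fold above Normal in HIF12 and at least 1.02-fold in LNCaP/Empty, where 3 of the 5 Vehicle arrays detected it. SCARNA20 stood at 5.52, 4.99, 5.01, 4.97 and 5.65 in LNCaP/Empty Vehicle, on no array detected, and at 7.05, 6.83, 6.90, 6.58 and 6.73 in HIF12 Vehicle. SCARNA23 stood at 5.88, 5.05, 5.18, 5.49 and 5.20, detected on 1 array, and at 6.99, 7.05, 7.61, 6.78 and 6.62. Neither was detected in Normal, the Vehicle groups of the 2 lines did not overlap, and HIF12 Vehicle was at least 1.91-fold and 2.18-fold above HIF12 Normal. Of all 24 scaRNAs on the array, detected or not, 19 had a higher shift in HIF12 (79.2% against 52.6% of all genes). Detection on at least 1 of the 21 arrays held for 15, of which 4 were detected in HIF12 Vehicle alone. SCARNA16 and SCARNA18 rose in both lines, by 2.25 and 2.12 in LNCaP/Empty and by 2.74 and 2.58 in HIF12, and did not pass in the difference (adjusted p = 0.73 and 0.76).

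**Figure D3:**
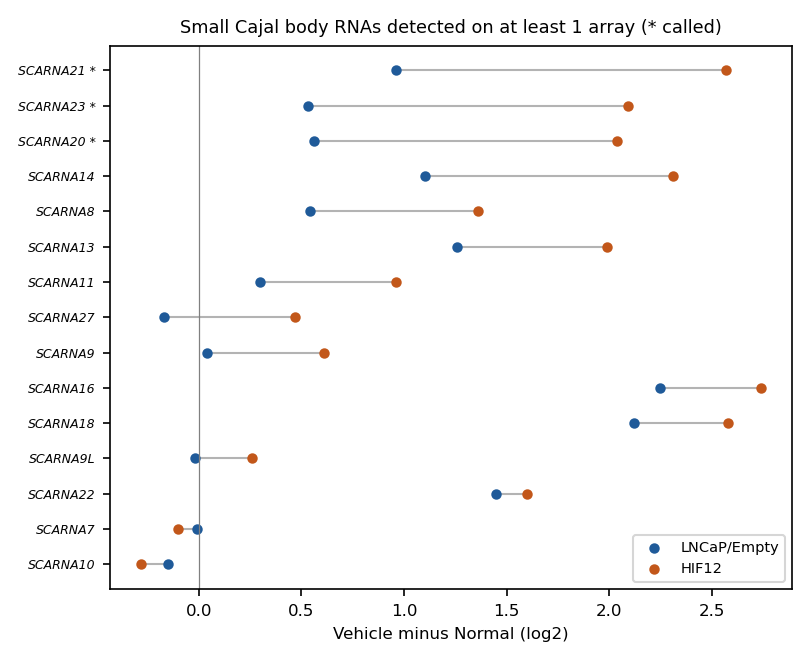
Normal-to-Vehicle shift (log2) of the 15 scaRNAs detected on at least 1 array, in LNCaP/Empty (blue) and HIF12 (orange), joined by a line for each RNA and ordered by the difference. The 3 starred RNAs have the widest gaps, 4 of the 15 are shown only because HIF12 Vehicle arrays detected them, and the shifts of RNAs undetected in a group are fitted values.

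Metallothioneins are small cysteine-rich proteins that bind zinc and copper, and a metal-sensing factor, MTF1, drives their genes through metal response elements. The promoter of MT2A is shown because the gene was called and its promoter is known for such elements. It is, from RefSeq, the 250 bases before the transcript start on the plus strand (chr16:56608334-56608583, GRCh38.p14), with matches to the metal response core, TGCACNC or TGCGCNC on either strand, in capitals.

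MT2A: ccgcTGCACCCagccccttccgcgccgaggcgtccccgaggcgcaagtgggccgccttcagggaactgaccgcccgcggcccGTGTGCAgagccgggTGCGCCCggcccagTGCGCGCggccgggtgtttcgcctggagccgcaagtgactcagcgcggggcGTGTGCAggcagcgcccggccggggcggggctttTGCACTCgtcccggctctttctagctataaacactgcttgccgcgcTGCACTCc

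There are 7 matches. Such a core was in the same window of all 5 metallothionein genes with a promoter entry, against 24.7% of 27305 promoters. These were MT1B, MT1H, MT1X, MT2A and MT4, and MT1G had no entry. The core was in 6 of the 16 called higher genes with an entry (37.5%) and in 4 of the 18 called lower genes (22.2%). A match is a run of letters and not a bound site. Of 10 metallothioneins measured, MT1G and MT2A were called higher and none lower (20% against 0.229% of all genes), and the median difference was 0.381 against 0.011 over all genes. MT2A fell by 1.34 on the log2 scale in LNCaP/Empty (adjusted p = 6.3e-12) and by 0.58 in HIF12 (adjusted p = 0.00017), the latter just under 1.5-fold. Its signal was 11.93 to 12.69 with a median of 12.37 in LNCaP/Empty Normal and 11.07, 10.90, 10.96, 10.98 and 11.04 in Vehicle. HIF12 had 11.91, 11.85, 11.78, 11.71 and 11.69 in Normal and 11.25, 11.28, 11.17, 11.19 and 11.13 in Vehicle. All HIF12 arrays were below all LNCaP/Empty arrays in Normal and above them in Vehicle, and the difference was 0.76 (95% confidence interval 0.46 to 1.06, adjusted p = 0.013).

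MT1G went the other way from MT2A in HIF12 and rose. It stood at 11.24 to 12.07 with a median of 11.78 in LNCaP/Empty Normal and at 11.46, 11.54, 11.35, 11.58 and 11.47 in Vehicle, which overlapped. In HIF12 it stood at 11.62, 11.55, 11.48, 11.26 and 11.27 in Normal and at 12.21, 12.16, 12.07, 12.00 and 11.95 in Vehicle. The HIF12 groups did not overlap, and the difference was 0.88 (95% confidence interval 0.59 to 1.17, adjusted p = 0.0012). MT1F (0.58, adjusted p = 0.038) passed on p and missed the fold. MT1H (0.86, adjusted p = 0.14) and MT1E (0.73, adjusted p = 0.16) had differences of like size and did not pass, and MT1X gave 0.18. The genes of this family are close in sequence, and their probes may read more than 1 of them.

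ATF4 is the transcription factor of the integrated stress response, and its targets make and carry amino acids and charge transfer RNAs. Of 34 measured genes of this response, 1 was called, DDIT4, and none was called lower (2.94% against 0.229%). The list moved by a small amount throughout: 31 of the 34 had a higher shift in HIF12 (91.2% against 52.6% of all genes), 23 of them with an unadjusted p under 0.05 (67.6% against 4.04%). The median difference was 0.343, against 0.011 over all genes. The median shift was -0.429 in LNCaP/Empty and -0.093 in HIF12. In Vehicle 11 members were called lower in LNCaP/Empty and 1 in HIF12, beside 2.93% and 2.71% of all genes. The mean of the members on each array, each gene centered on its mean, ran from 0.15 to 0.39 in LNCaP/Empty Normal and from -0.29 to -0.20 in LNCaP/Empty Vehicle. It ran from 0.01 to 0.13 in HIF12 Normal and from -0.14 to -0.03 in HIF12 Vehicle, so that HIF12 lay within the range spanned by the LNCaP/Empty groups in both states.

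DDIT4, also named REDD1, restrains mTORC1 and is induced by hypoxia as well as by ATF4. Its signal in LNCaP/Empty was 12.10 to 12.73 with a median of 12.38 in Normal and 11.59, 11.65, 11.65, 11.56 and 11.87 in Vehicle. In HIF12 it was 12.17, 12.03, 12.04, 11.98 and 11.92 in Normal and 12.04, 12.02, 11.89, 11.87 and 12.04 in Vehicle. It dropped in LNCaP/Empty with no overlap between the groups, the HIF12 groups overlapped, and the difference was 0.68 (95% confidence interval 0.42 to 0.94, adjusted p = 0.0098). The largest difference of the list was that of CHAC1, a glutathione-degrading enzyme, with a mean of 6.28 in LNCaP/Empty Normal, 5.20 in LNCaP/Empty Vehicle, 5.57 in HIF12 Normal and 5.64 in HIF12 Vehicle. It was detected on 7 of the 21 arrays and just missed the threshold with a difference of 1.14 (adjusted p = 0.07). The cystine carrier SLC7A11 (0.62, adjusted p = 0.11), the pseudokinase TRIB3 (0.58, adjusted p = 0.061) and the leucine carrier SLC7A5 (0.55, adjusted p = 0.23) did not pass. CEBPG, a partner of ATF4, passed on p (0.47, adjusted p = 0.015) and missed the fold. PCK2, the mitochondrial PEPCK that ATF4 is known to induce, was not on the list and was noticed after its values were seen. It was at 12.37 to 12.72 with a median of 12.56 in LNCaP/Empty Normal and at 12.01, 11.91, 11.84, 11.75 and 12.03 in Vehicle. In HIF12 the values were 12.20, 12.04, 12.01, 12.10 and 12.00 in Normal and 12.11, 12.07, 12.14, 12.06 and 11.97 in Vehicle. By this probe the drop was seen in LNCaP/Empty alone, and the difference was 0.64 (95% confidence interval 0.45 to 0.84, adjusted p = 0.00033). The other PCK2 probes gave 0.44 (adjusted p = 0.36) and 0.47 (adjusted p = 0.39), and by the latter the signal was higher in Vehicle in both lines, by 0.39 in LNCaP/Empty and 0.86 in HIF12.

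**Figure D4:**
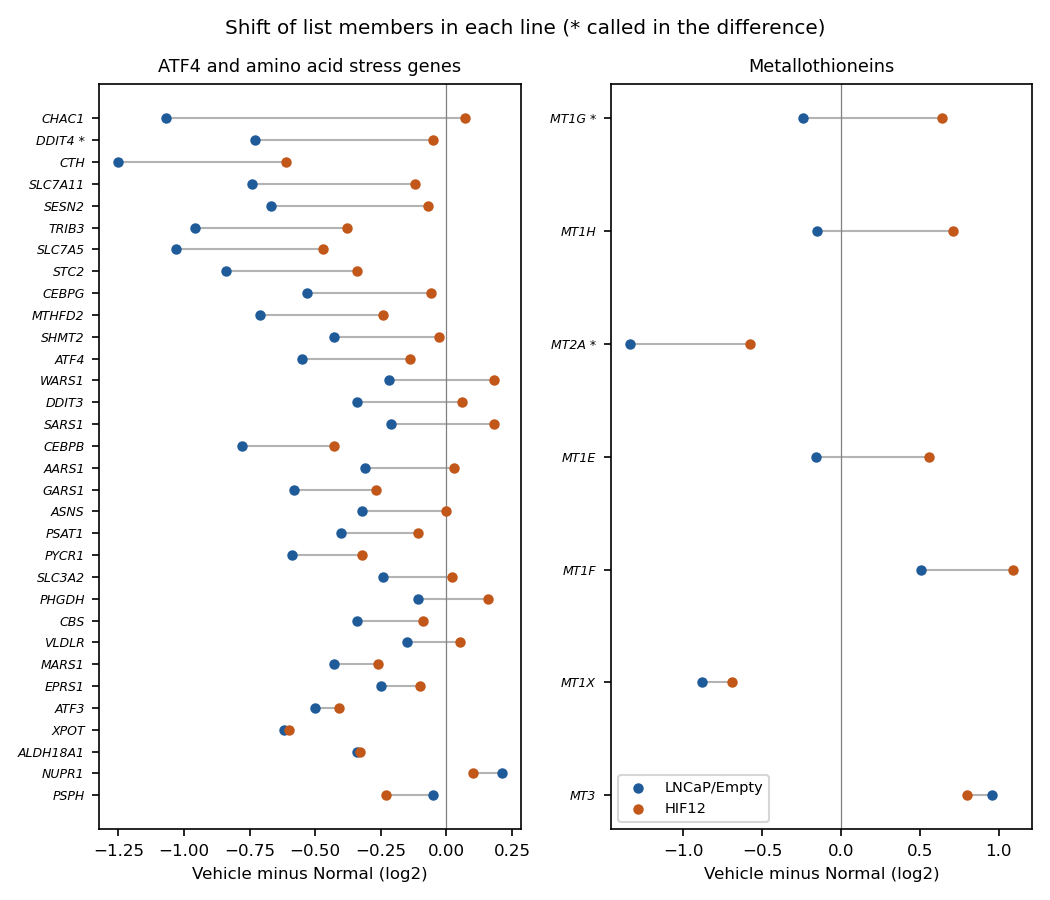
Normal-to-Vehicle shift (log2) in LNCaP/Empty (blue) and HIF12 (orange) of the 32 ATF4 and amino acid stress genes and the 7 metallothioneins detected on at least 1 array, ordered by the difference, with called genes starred. The orange points lie to the right of the blue ones for most genes of both lists, with DDIT4 at -0.73 and -0.05 and MT1G at -0.24 and 0.64.

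The promoters of DDIT4, IGFBP3 and CHAC1 are shown because the first 2 were the called members of 57 measured HIF and hypoxia targets and the third led the ATF4 genes among those not called. Each is the 250 bases before the transcript start from RefSeq (GRCh38.p14): chr10:72273674-72273923 on the plus strand, chr7:45921273-45921522 on the minus strand and chr15:40953221-40953470 on the plus strand. Capitals mark the HIF core, ACGTG or GCGTG on either strand, in DDIT4 and IGFBP3, and the ATF4 composite element, TGATGNAAT or TGATGNAAC on either strand, in CHAC1.

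DDIT4: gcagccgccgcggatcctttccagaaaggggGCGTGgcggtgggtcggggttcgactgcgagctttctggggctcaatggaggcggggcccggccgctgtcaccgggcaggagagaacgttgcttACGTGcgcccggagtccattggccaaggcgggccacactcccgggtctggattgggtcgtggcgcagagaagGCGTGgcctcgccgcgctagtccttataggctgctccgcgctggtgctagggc
IGFBP3: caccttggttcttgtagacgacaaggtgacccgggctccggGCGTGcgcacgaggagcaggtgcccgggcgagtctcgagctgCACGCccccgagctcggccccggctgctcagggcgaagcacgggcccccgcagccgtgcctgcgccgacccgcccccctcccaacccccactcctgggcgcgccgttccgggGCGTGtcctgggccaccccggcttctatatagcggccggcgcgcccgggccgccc
CHAC1: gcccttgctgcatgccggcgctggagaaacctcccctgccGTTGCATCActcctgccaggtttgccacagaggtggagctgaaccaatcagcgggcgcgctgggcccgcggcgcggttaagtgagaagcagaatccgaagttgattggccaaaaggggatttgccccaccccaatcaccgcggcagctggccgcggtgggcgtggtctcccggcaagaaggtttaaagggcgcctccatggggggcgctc

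DDIT4 and IGFBP3 hold 3 HIF cores each, and CHAC1 holds 1 ATF4 element. The HIF core was in 43.1% of 27305 promoters, in 7 of the 16 called higher genes with an entry (43.8%) and in 8 of the 18 called lower genes (44.4%). The ATF4 element was in 1.57% of all promoters and in 4 of the 28 ATF4 list genes with an entry (14.3%). The other HIF and hypoxia targets did not pass: their list had 2 called of 57 (3.51% against 0.229%) and a median difference of 0.03. Neither VEGFA, an angiogenic factor (0.35, adjusted p = 0.79), nor SLC2A1, a glucose carrier (-0.08, adjusted p = 0.97), passed in the difference.

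Among the 18 genes lower in HIF12, SLC39A8 moved in opposite directions in the lines. It encodes ZIP8, a carrier that brings zinc and manganese into cells. Its signal was 8.91 to 9.61 with a median of 9.51 in LNCaP/Empty Normal and 9.91, 10.32, 10.04, 10.08 and 9.72 in Vehicle. In HIF12 it was 7.92, 7.65, 7.74, 7.76 and 7.83 in Normal and 6.52, 7.40, 7.28, 7.19 and 7.38 in Vehicle. Vehicle was above Normal on every array in LNCaP/Empty and below it on every array in HIF12. The shift was 0.60 in LNCaP/Empty (adjusted p = 0.0022) and -0.63 in HIF12 (adjusted p = 0.0025), a difference of -1.23 (95% confidence interval -1.64 to -0.82, adjusted p = 0.0012). Its other probe gave -0.94 (adjusted p = 0.012), and by it the rise in LNCaP/Empty, 0.29, was not called (adjusted p = 0.18). In HIF49 Normal SLC39A8 had a mean of 9.90 ± 0.29 (SD, n = 5), above the 7.78 ± 0.10 of HIF12 Normal.

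GSTA1, a glutathione transferase, showed the difference on 3 probes, of which 2 were called. By the probe of smallest p it stood at 7.95 to 8.22 with a median of 8.05 in LNCaP/Empty Normal and at 8.52, 8.48, 8.43, 8.42 and 8.02 in Vehicle. In HIF12 it stood at 8.29, 8.25, 8.08, 8.12 and 8.07 in Normal and at 7.63, 7.62, 7.24, 7.70 and 7.39 in Vehicle. The Normal groups overlapped, and every HIF12 Vehicle array was below all other arrays. The difference was -0.95 (95% confidence interval -1.24 to -0.66, adjusted p = 0.00048), beside -0.69 (adjusted p = 0.015) and -0.99 (adjusted p = 0.23) on the others. GSTA2, a near copy of GSTA1, just missed the threshold (-0.98, adjusted p = 0.077), and the probes may read both.

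CBLN2, a synaptic organizer, and GCG, the glucagon precursor, rose in both lines. CBLN2 rose less in HIF12, and GCG was lower in HIF12 Vehicle than in LNCaP/Empty Vehicle. CBLN2 was at 6.67 to 7.46 with a median of 6.97 in LNCaP/Empty Normal and at 9.44, 9.25, 9.29, 9.18 and 9.12 in Vehicle. HIF12 had 8.08, 7.82, 7.97, 7.87 and 7.95 in Normal and 9.40, 9.41, 8.94, 8.99 and 9.31 in Vehicle. The lines differed in Normal and overlapped in Vehicle, and the difference was -0.95 (95% confidence interval -1.28 to -0.63, adjusted p = 0.0017). GCG was detected on no Normal array. In Vehicle it was at 7.15, 7.21, 7.60, 7.50 and 7.48 in LNCaP/Empty and at 6.40, 6.08, 6.03, 6.16 and 6.26 in HIF12. These groups did not overlap. Vehicle was at least 2.80-fold above Normal in LNCaP/Empty and at least 1.23-fold in HIF12, beside a fitted difference of -1.20 (adjusted p = 0.0044). MAPK10, the neuronal kinase JNK3, was also undetected in Normal. It was at 6.70, 6.90, 6.83, 6.85 and 7.25 in LNCaP/Empty Vehicle and at 6.06, 5.44, 5.73, 6.11 and 5.50 in HIF12 Vehicle, with a fitted difference of -1.03 (adjusted p = 0.01). Unlike GCG, it was detected on only 2 of the 5 HIF12 Vehicle arrays. Vehicle was at least 2.01-fold above Normal in LNCaP/Empty, and no such bound could be given in HIF12. Another 3 MAPK10 probes were detected on none of the 21 arrays. EPHA3, a receptor tyrosine kinase of the ephrin family, was at 7.14, 7.18, 7.24, 7.53 and 6.79 in LNCaP/Empty Vehicle and undetected in HIF12 in both states (-1.03, adjusted p = 0.02), a call that held in 4 of the 11 alternatives that kept all arrays of the comparison.

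PLA1A, a phospholipase, fell in both lines, in HIF12 from a higher start. It was at 6.73 to 7.13 with a median of 6.88 in LNCaP/Empty Normal and at 7.76, 7.71, 7.91, 8.16 and 8.18 in HIF12 Normal. In Vehicle it was at 5.60, 6.03, 5.73, 5.68 and 5.74 in LNCaP/Empty, on no array detected, and at 5.59, 6.13, 6.03, 6.14 and 5.90 in HIF12. The lines were apart in Normal and overlapped in Vehicle at the detection limit, with a fitted difference of -0.84 (adjusted p = 0.015). TNS3, a tensin of cell adhesions, was at 6.83, 7.23, 7.46, 7.06 and 7.02 in HIF12 Normal and on no array detected in Vehicle, at least a 2.39-fold drop. In LNCaP/Empty it was detected on 1 Normal array and on no Vehicle array (fitted difference -1.33, adjusted p = 0.0012). GRPR, the receptor of gastrin-releasing peptide, was likewise detected in HIF12 Normal alone of the 4 groups, at 6.36, 6.43, 6.47, 6.58 and 6.68 (fitted difference -1.17, adjusted p = 0.00033). So was CXCL10, an interferon-induced chemokine, at 6.22, 6.20, 6.05, 6.35 and 6.09 (fitted difference -0.89, adjusted p = 0.021). CXCL10 was the single member called of 50 interferon response genes (2% against 0.229% of all genes), whose median difference was -0.077.

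TNFRSF19, a receptor of the TNF family, was at 10.61 to 11.15 with a median of 10.79 in LNCaP/Empty Normal and at 11.65, 11.48, 11.26, 11.22 and 10.93 in Vehicle. In HIF12 it was at 11.54, 11.45, 11.61, 11.44 and 11.56 in Normal and at 11.07, 11.50, 11.00, 11.00 and 10.99 in Vehicle. The groups overlapped within both lines, with HIF12 Vehicle replicate 2 among the Normal arrays, and the difference was -0.86 (95% confidence interval -1.19 to -0.52, adjusted p = 0.01). TFAP2A, the transcription factor AP-2 alpha, fell from 7.90, 7.73, 7.74, 7.77 and 7.82 to 6.93, 6.70, 6.79, 6.37 and 6.83 in HIF12. In LNCaP/Empty it went from 8.41 to 8.71 with a median of 8.57 to 8.11, 7.99, 8.21, 8.09 and 8.40. Normal and Vehicle were apart in both lines, and the larger drop was in HIF12 (difference -0.65, adjusted p = 0.02). PPFIA2, a liprin, stood at 9.74, 9.99, 10.07, 9.85 and 10.06 in HIF12 Normal and at 9.39, 9.46, 9.33, 9.35 and 9.35 in HIF12 Vehicle, while its LNCaP/Empty groups overlapped (difference -0.67, adjusted p = 0.014). BRINP3 (-1.04, adjusted p = 0.013; its other probe -0.41, adjusted p = 0.86) and PRR16 (-0.61, adjusted p = 0.026) were the remaining named genes among the 18, and PRR16 was called in 9 of the 21 fits without 1 array.

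The remaining called genes were singled out after their values were seen. CNTNAP2, a neurexin-family adhesion protein, stood at 8.86 to 9.00 in LNCaP/Empty Normal, 7.22 to 7.54 in LNCaP/Empty Vehicle, 7.67 to 7.89 in HIF12 Normal and 6.75 to 7.08 in HIF12 Vehicle. It fell in both lines with no overlap, and less in HIF12 (0.67, adjusted p = 0.001). GFPT1, the entry enzyme of hexosamine synthesis, was lower in Vehicle on every LNCaP/Empty array and higher in Vehicle on every HIF12 array (0.66, adjusted p = 0.011), while its other probe gave 0.40 (adjusted p = 0.84). CAPN5, a calpain (0.67, adjusted p = 0.047), and LDHD, the D-lactate dehydrogenase (0.63, adjusted p = 0.036), had higher shifts in HIF12, and the other LDHD probe gave 0.26 (adjusted p = 0.96). TFPI, the tissue factor pathway inhibitor, went from 11.47 to 11.69 in Normal to 11.84 to 12.13 in Vehicle in LNCaP/Empty, while the HIF12 groups overlapped (-0.61, adjusted p = 0.024), and its other probes gave -0.42 and -0.38 (adjusted p = 0.41 and 0.79). ANKRD29, MLKL, PRSS27 and NPIPA1 were also higher, and DAPL1 and DDIT4L lower, and of these only NPIPA1, of a family of near-identical genes, was detected on every array.

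**Figure D5:**
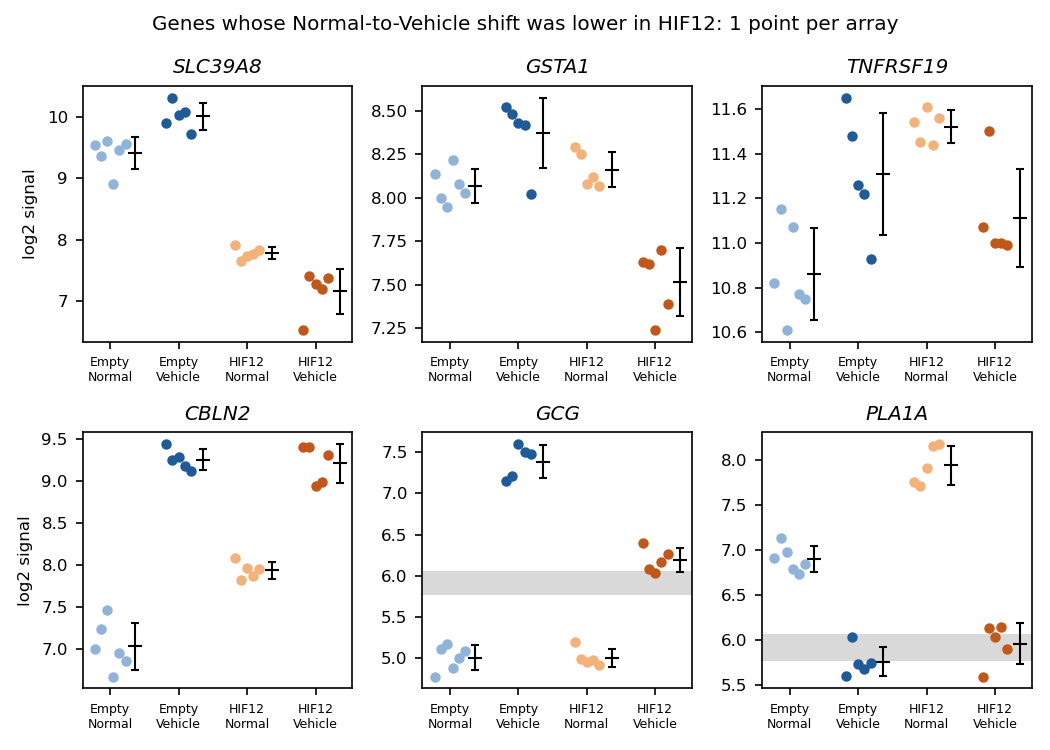
Log2 signal of 6 genes called lower in HIF12, 1 point per array, by line and treatment, with the mean and SD of each group beside its points and the range of detection limits as a gray band where it falls in the panel. SLC39A8 rose in LNCaP/Empty and fell in HIF12, and CBLN2 rose less in HIF12. GCG had a lower Vehicle level in HIF12, and PLA1A fell from a higher Normal level in HIF12.

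Of 89 measured androgen response genes none was called in the difference (0% against 0.229% of all genes). In LNCaP/Empty 36 of them fell and 4 rose, beside 2.93% and 3.29% of all genes. HIF12 had 28 that fell and 3 that rose, beside 2.71% and 3.82%. In limma 13 of the 89 had an unadjusted p under 0.05 with a higher shift in HIF12 (14.6% against 4.04% of all genes) and 4 with a lower one (4.49% against 2.94%), and the median difference was 0.063. KLK3 had a difference of -0.17 (95% confidence interval -0.57 to 0.24), KLK2 one of -0.52 (-1.12 to 0.08), FKBP5 one of 0.32 (0.03 to 0.60) and SGK1 one of 0.45 (0.04 to 0.87), none of which passed. The other SGK1 probes gave -0.10, 0.09 and -0.13, the last detected on no array of the comparison. TMPRSS2 gave 0.17 (-0.35 to 0.69), and -0.11 without HIF12 Vehicle replicate 4. KLK4, a kallikrein of the same cluster as KLK3, passed on p (-0.48, adjusted p = 0.0098) and missed the fold.

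The study singled out genes as raised both by androgen and by HIF1a, which is another question than a difference of shifts. Among these genes IGFBP3 was called here and those that follow were not. HIF12 minus LNCaP/Empty was 1.19 in Normal and 0.83 in Vehicle for TWIST1, 0.82 and 1.08 for JAG1, and 0.29 and 0.73 for SPRED1. The same gaps were 0.38 and 0.72 for PPFIBP2, 0.68 and 0.69 for NDRG1 and -0.72 and 0.96 for IGFBP3. TWIST1, a factor of epithelial-mesenchymal transition, gave a difference of -0.36 (95% confidence interval -0.65 to -0.07, adjusted p = 0.67). The Notch ligand JAG1 gave 0.26 (-0.13 to 0.65, adjusted p = 0.93) and the Ras inhibitor SPRED1 0.44 (0.13 to 0.74, adjusted p = 0.51). PPFIBP2, a liprin-binding protein, gave 0.34 (0.03 to 0.64, adjusted p = 0.77) and the hypoxia-induced NDRG1 0.00 (-0.37 to 0.37, adjusted p = 1). KCNN2 was not analyzed here.

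Genes of fatty acid synthesis were like the ATF4 genes in direction, while those of cholesterol synthesis had a median difference of 0.048. Of 17 fatty acid synthesis genes none was called and 7 had an unadjusted p under 0.05 with a higher shift in HIF12 (41.2% against 4.04% of all genes). Their median difference was 0.234, with a median shift of -0.392 in LNCaP/Empty and -0.158 in HIF12. SCD, which puts the first double bond into fatty acids, was the member that passed on p, with 0.41 (adjusted p = 0.0096). Genes of DNA replication had 11 of 45 called lower in LNCaP/Empty and 12 in HIF12, beside 2.93% and 2.71% of all genes. None of the 45 was called in the difference, and their median difference was 0.016. Genes of mitosis had 11 and 19 of 48 called lower, beside the same shares of all genes, and a median difference of -0.037. None of 21 glycolysis genes, 20 cholesterol synthesis genes, 72 oxidative phosphorylation genes and 67 cytosolic ribosomal protein genes was called in limma, and at an unadjusted p under 0.05 these lists held 0, 1, 0 and 0 genes with a higher shift and 0, 0, 4 and 1 with a lower one, beside 4.04% and 2.94% of all genes. The 4 oxidative phosphorylation genes were 5.56% of their list.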

How the data were processed

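The authors deposited scanner intensities per probe with detection p-values, and a second table of linear, quantile normalized signal for these arrays. Per the labels the arrays were Illumina BeadArrays of total RNA, and probe names came from the probe table of the deposited data, in which 30113 of 48107 probes had 1 gene name, 8 several and 17986 none. Probes lacking a value on some array (2) were dropped. The background was removed by limma's nec function (offset 16; limma version 3.58.1 under R 4.3.3), and the values were quantile normalized over the 36 arrays and log2 transformed, and no probe was filtered. A model with 1 mean per group was fitted to all 36 arrays (lmFit, eBayes), the contrast was the difference of shifts, and Benjamini-Hochberg adjustment ran over all probes tested. All adjusted p-values are from limma and two-sided. The deposited normalized signal served as an alternative.

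Array columns were matched to samples by the running number that opens each title. A level below the detection limit of a group, with detection on none of its arrays, was replaced by that limit to give the lower bounds written as "at least". Named genes were the 15 largest called differences in each direction among genes detected on every array of 1 of the 4 groups, up to 3 called members of each gene list, HIF1A, the genes the study names and 6 androgen targets. Other names were chosen after their values were seen. The members, rule and lists were chosen with earlier results of these data known. Lists are described by counts and medians with no test. The shares over all genes count undetected genes too and were not matched to the detection of a list. Replicate numbers did not pair the arrays, and the code was tested on simulated data. The number of arrays limits the precision. Promoter sequences were taken from RefSeq (GRCh38.p14) by symbol, with 34 of the 46 called genes matched.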

Additional observations from a re-analysis of the deposited data

Results flagged for a closer look

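The results listed here are those in which the shift of HIF12 differed from that of LNCaP/Empty by the test of the difference itself, and those in which 1 array lay far from the others of its group. By the first measure 28 genes had a higher and 18 a lower shift in HIF12. Among the named genes the higher differences were 1.94 for AGR2, 1.68 for IGFBP3, 1.65 for NIBAN1, 1.61 for SCARNA21, 1.56 for SCARNA23, 1.48 for SCARNA20, 1.46 for S100P, 1.32 for IL1B, 1.29 for HGD, 1.21 for CAMK2N1, 1.12 for HES1, 1.08 for CT45A3, 0.97 for ADRA2A, 0.92 for MSMB, 0.88 for MT1G, 0.84 for UGT2B17, 0.76 for MT2A, 0.68 for DDIT4 and 0.59 for NQO1 on the log2 scale. The lower ones were -1.33 for TNS3, -1.23 for SLC39A8, -1.20 for GCG, -1.17 for GRPR, -1.04 for BRINP3, -1.03 for MAPK10, -1.03 for EPHA3, -0.95 for CBLN2, -0.95 for GSTA1, -0.89 for CXCL10, -0.86 for TNFRSF19, -0.84 for PLA1A, -0.67 for PPFIA2, -0.65 for TFAP2A and -0.61 for PRR16.

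Of 180 combinations of a named gene and a group, 11 had an array whose gap to its nearest neighbor was above the 95% critical value of Dixon's test, and chance gives about 1 in 20. TMPRSS2 in HIF12 Vehicle replicate 4 stood at 12.55 with the nearest array at 11.26, and SPRED1 on the same array at 9.42 against 8.97. LNCaP/Empty Vehicle replicate 5 stood apart for GSTA1, at 8.02 against 8.42, for NIBAN1, at 6.97 against 6.47, and for PPFIA2, at 9.52 against 9.26. LNCaP/Empty Normal replicate 4 stood apart for SLC39A8, at 8.91 against 9.37, and for PPFIA2, at 9.45 against 9.18. The others were SLC39A8 in HIF12 Vehicle replicate 1, at 6.52 against 7.19, TNFRSF19 in HIF12 Vehicle replicate 2, at 11.50 against 11.07, HGD in LNCaP/Empty Normal replicate 3, at 8.43 against 8.17, and GCG in HIF12 Normal replicate 1, at 5.19 against 4.99 and below detection.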

How the results depend on the processing

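The counts of 28 higher and 18 lower genes held within 1.5 times under every alternative, with 2 exceptions among the lower genes, which numbered 31 when only the 21 compared arrays were normalized and fitted and 36 with array weights. Leaving out 1 array at a time gave 21 to 32 higher and 15 to 25 lower genes, and 33 of the 46 were called in all 21 such fits. The calls held in 4 to 9 of them for CAPN5, ANKRD29, NQO1, LDHD and PRR16 and in 12 to 19 for TFPI, HES1, CXCL10, IGFBP3, MLKL, NPIPA1, EPHA3 and TFAP2A. NPIPA1 was lost without LNCaP/Empty Vehicle replicate 4 or HIF12 Normal replicate 5, and EPHA3 without LNCaP/Empty Vehicle replicate 4 or HIF12 Vehicle replicate 3. Without background correction 21 and 15 genes were called, with 18 and 8 of the original ones among them. The deposited normalized table gave the same counts, so that these alternatives are not separate from each other. Of the 46 genes, 19 were called under all 32 alternatives: ADRA2A, AGR2, CAMK2N1, CNTNAP2, DDIT4, HGD, MT1G, MT2A, NIBAN1, PCK2, S100P, SCARNA20, SCARNA21, SCARNA23 and UGT2B17 among the higher, and GCG, GSTA1, PLA1A and SLC39A8 among the lower. Dim genes such as IL1B, CT45A3, GRPR, MAPK10 and TNS3 were lost without background correction. Among the 19 retained genes, NIBAN1, SCARNA20, SCARNA21, SCARNA23, GCG and PLA1A also had a group in which no array detected them. Being called under all alternatives does not make their differences measured sizes. The median difference of the ATF4 list lay between 0.303 and 0.396 in all alternatives, and that of the metallothioneins between 0.317 and 0.727, the highest with only probes detected on at least 5 arrays, which leaves fewer members. Small list medians changed sign: that of the androgen-repressed genes (0.017) was -0.025 without LNCaP/Empty Normal replicate 4, that of the HIF targets (0.03) -0.005 without LNCaP/Empty Normal replicate 2, that of DNA replication (0.016) -0.002 without HIF12 Normal replicate 1 and that of mitosis (-0.037) 0.026 with median scaling. NQO1 was called in 3 and EPHA3 and PRR16 in 4 of the 11 alternatives other than leaving out an array.

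Among the named genes, directions turned in KLK3, NDRG1 and TMPRSS2, which were not called. KLK3 went to 0.14 without background correction and with the deposited normalized table and to 0.09 with plain normexp. NDRG1 went to -0.01 under those 3 settings, to -0.06 with the replicate number as a block, and ran from -0.11 to 0.08 when 1 array was left out. TMPRSS2 ran from -0.11 to 0.27. The cause was not tested. The replicate block gave 25 higher and 18 lower genes, 24 and 16 of them shared. Arrays of the same number correlated at -0.24 to 0.14 in their deviations, and 3 of 21 matched their own number best, so that the block was not used. Dim probes limit the sizes given.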
